A study of Mus musculus with 12 samples.

Results

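Teratomas grown from mouse ES cells that carried the K412R form of Dnmt3L were compared with teratomas whose libraries are labelled K238R. The comparison used 6 of the 12 RNA-seq libraries of the study, 3 labelled K412R and 3 labelled K238R, chosen by the titles and the treatment label of the samples, and it set these mutant constructs directly against each other without the wild-type libraries. It asks whether replacing one acetylated lysine or the other leaves a different tissue makeup in the tumour.

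All cells were R1 mouse ES cells grown with serum and LIF. Their genotype is Dnmt3L overexpression via the lentiviral pEZ-LV235 vector with a CAG promoter, which is active in most cell types, and the treatment label is K412R or K238R. Per the study's methods, 5000000 cells were placed under the skin of male immunodeficient mice (NOD-Prkdc EM1, aged 8 weeks), and the teratomas used for RNA were taken at day 21. The infected cells were selected as pools, the tumours were read whole, and cells of the host (blood, vessels, macrophages) remained in them. The labels do not say whether the 3 libraries of a group came from 3 mice, so p-values measure the spread between these libraries, which may be in part technical.

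Dnmt3L is a relative of the de novo DNA methyltransferases that has no catalytic activity of its own. It binds Dnmt3a and Dnmt3b and stimulates them, and in germ cells it is needed for the methylation of imprinted loci. Acetyl groups on lysines can alter how long a protein lasts, and arginine at the same position keeps the positive charge but cannot be acetylated in that way. A teratoma is a tumour of pluripotent cells that differentiates in disorder into nerve, skin, muscle, gland and connective tissue, so that bulk RNA reads the mixture of these tissues. In such a mixture, fewer cells of a type and less RNA per cell cannot be told apart.

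The mutated codons are shown because they are the designed difference between these constructs. Both lie in the coding sequence of the mouse gene, on the plus strand of chromosome 10 in GRCm38, and the transcript Dnmt3l-201 of GENCODE M21 encodes 421 residues in 13 exons. The codon of the lysine changed in K238R is at chr10:78054977-78054979 in exon 9, and that of the lysine changed in K412R is at chr10:78063317-78063319 in exon 13, the last exon. The lines give the unmutated coding strand with 30 bases on either side, and capitals mark the codon that the construct changes.
K238R site: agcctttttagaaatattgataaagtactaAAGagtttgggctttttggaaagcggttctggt
K412R site: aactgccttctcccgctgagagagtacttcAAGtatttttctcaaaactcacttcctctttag
The counts do not separate the transgene from the gene of the cell, and the codons used in the constructs were not analysed here.

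The Dnmt3l transcript itself separated the groups more than any gene with counts in all 6 libraries. The libraries labelled K238R held 35, 20 and 10 counts, and the K412R libraries held 699, 677 and 463. As CPM (the count as a share of the library total, scaled with TMM factors), this was 1.86, 1.12 and 0.525 against 40.4, 39.7 and 25.3, so the groups did not overlap and K412R stood 30.1 times higher. The log2 fold change was 4.90 (standard error 0.36, adjusted p = 0.00581 by the quasi-likelihood test of edgeR, Benjamini-Hochberg over all genes), and it passed the threshold under all 13 other settings tried. The 3 empty-vector (ET) libraries of the study, scaled with all 12 libraries, held 2.19, 0.643 and 7.73 CPM, a range that takes in 2 of the 3 libraries labelled K238R and lies above the lowest of them. The transcript thus does not show the construct that the label K238R names, and these samples are called the libraries labelled K238R throughout. Every difference given here is between libraries with and without a raised Dnmt3l transcript as well as between mutant labels, and these cannot be told apart.

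**Figure D1:**
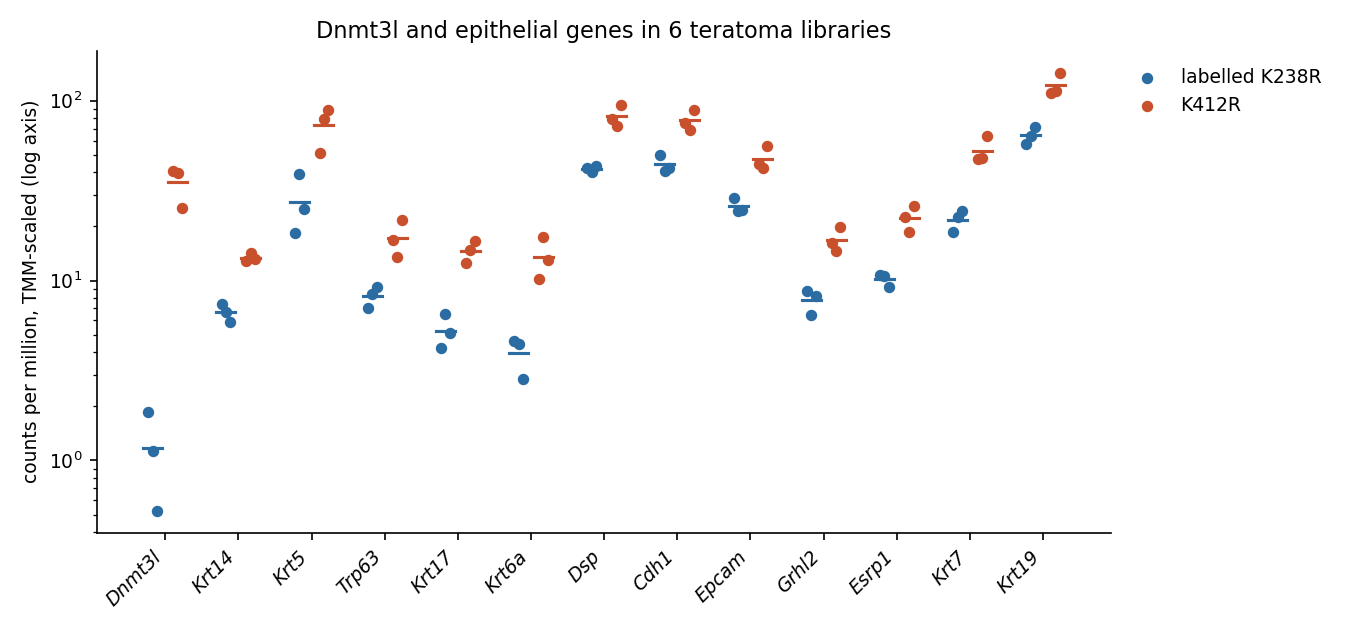
Level of Dnmt3l and 12 epithelial genes in each of the 6 libraries, in TMM-scaled CPM on a log axis. Points are libraries and bars are group means (3 libraries each). For each of the 13 genes all K412R libraries lay above all libraries labelled K238R. The 12 epithelial genes were picked with their values known. In the keratinocyte list 20 of 31 tested genes lay above in this way (beside 11.9% of all genes). In the same list 1 lay below (beside 7.98%), and 4 had a negative log2 fold change.

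The libraries were of like depth. Their totals lay between 17686327 and 18546100 counts, a ratio of 1.049, and TMM factors lay between 0.964 and 1.035. One RNA, Gm26917, took 7.47% to 13.9% of a library. Replicates differed by far more than counting noise (chi-square per degree of freedom 11.9 to 31.8), so none was counted as a repeat of another. Distances between libraries (root mean square of log2 CPM differences) were taken over the 500 most variable genes. They were 1.46 to 1.64 between K412R libraries, 1.72 to 2.45 between the libraries labelled K238R and 1.81 to 2.35 between groups. The K412R libraries thus lay close together. Replicates 1 and 2 labelled K238R were 1.72 apart, less than either was from any K412R library. Replicate 3 labelled K238R was 2.45 and 2.44 from replicates 1 and 2.

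Of 17644 genes tested, 52 (0.295%) passed an adjusted p of 0.05 by edgeR quasi-likelihood, 46 of them higher in K412R (0.261%) and 6 lower (0.034%). All but Dnmt3l sat close to the threshold, with 51 of the 52 adjusted p-values between 0.047 and 0.049 (the highest was 0.0489), and 257 more genes lay between 0.05 and 0.1. An unadjusted p under 0.05 was reached by 2633 genes (14.9%). DESeq2 called 733 genes at the same threshold, 462 higher (2.86%) and 271 lower (1.68%), among them 51 of the 52. By the looser criterion of a 2-fold difference and an unadjusted p under 0.05, 316 genes were higher in K412R (1.79%) and 144 lower (0.816%). All 3 K412R libraries lay above all 3 libraries labelled K238R for 2105 genes (11.9%) and below them for 1408 (7.98%). The median log2 fold change over all genes was 0.006. With 1 library left out, the number of called genes ran from 1 to 133, and scaling with relative log expression factors left 1, so that only Dnmt3l was called in all of these fits. Of the 52, 50 were called in at most 2 of the 6 fits that left out a library. Verbs such as rose and fell are used here for genes among the 52. Gm4779, on chromosome X, had the largest fall of the 6 (log2 fold change -2.107, adjusted p = 0.0489 by edgeR quasi-likelihood). The genes 2610028H24Rik, Cbr2 and Gm31160 rose by log2 fold changes of 2.197, 1.438 and 1.318. The gene 8030474K03Rik, also on chromosome X, was lower (-2.171) but was not called (adjusted p = 0.0513 by edgeR quasi-likelihood).

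Epithelium, and squamous epithelium in particular, gave the list with the highest median and the most called genes. Keratinocytes carry a basal layer marked by Krt5, Krt14 and the transcription factor Trp63, and upper layers with keratins of the wound and hair follicle programme, desmosomes and cornified envelope proteins. Of the 31 tested genes of the keratinocyte list, 27 had a positive log2 fold change, and the median was 1.03. Of the 31, 5 rose (beside 0.261% of all genes) and 0 fell (beside 0.034%). By the 2-fold criterion 17 were higher (beside 1.79% of all genes) and 0 lower (beside 0.816%). All 3 K412R libraries lay above the others for 20 (64.5%, beside 11.9% of all genes) and below for 1. Another 14 members in the table were below the filter on low counts. The summed level of the list was 252, 458 and 440 CPM in the libraries labelled K238R, against 589, 768 and 881 CPM in K412R.

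Dsp, which encodes the desmosomal protein desmoplakin, was at 42.1, 40.0 and 43.1 CPM in the libraries labelled K238R, against 79.3, 72.7 and 94.9 CPM in K412R. The gap between the groups was wider than the range within either, and the log2 fold change was 0.98 (standard error 0.11, adjusted p = 0.0472 by edgeR quasi-likelihood). After Dnmt3l it was the call that survived most often when a library was left out, in 3 of 6 fits. Krt14, a keratin of basal cells, stood at 7.38, 6.67 and 5.88 CPM against 12.8, 14.3 and 13.2 CPM (log2 fold change 1.01). Krt17, a keratin of hair follicles and wounded skin, stood at 4.2, 6.5 and 5.09 CPM against 12.5, 14.7 and 16.6 CPM (log2 fold change 1.47). Both rose with no overlap. Krt17 was at 4.83, 11.6 and 2.88 CPM in the empty-vector libraries (12-library scaling).

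Krt6a, whose protein is made in hair follicles and healing epidermis, was at 4.62, 4.43 and 2.84 CPM against 10.2, 17.4 and 13.1 CPM, a log2 fold change of 1.78. Sprr1a, a precursor of the cornified envelope, was at 0.531, 0.672 and 0.368 CPM against 2.08, 2.70 and 2.57 CPM, a log2 fold change of 2.22 at a low level in both groups. These 2 also rose without overlap. Krt5 and Trp63 did not pass the adjusted threshold with edgeR, though their libraries did not overlap either. Krt5 was at 18.4, 38.9 and 25.0 CPM against 51.5, 79.4 and 89.0 CPM (log2 fold change 1.42 with a standard error of 0.28, adjusted p = 0.0832). Trp63 was at 7.07, 8.40 and 9.19 CPM against 16.7, 13.6 and 21.6 CPM (1.07, standard error 0.19, adjusted p = 0.0694 by edgeR quasi-likelihood).

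Cdh1 and Epcam, which are in no skin list, were named after their values were seen, and no list of general epithelial genes was tested. Cdh1, which encodes E-cadherin, the adhesion protein of epithelial junctions, was at 49.7, 40.7 and 42.2 CPM against 75.5, 69.0 and 88.2 CPM (log2 fold change 0.81, standard error 0.12). Epcam, an epithelial surface glycoprotein, was at 28.8, 24.5 and 24.5 CPM against 44.5, 42.0 and 56.0 CPM (0.87, standard error 0.13). Both passed with an adjusted p of 0.0489 by edgeR quasi-likelihood, and neither overlapped between groups.

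The genes given next were also singled out among the called genes. Grhl2, a transcription factor of the Grainyhead-like family that maintains epithelial junctions, was at 8.71, 6.44 and 8.24 CPM against 16.1, 14.7 and 19.9 CPM (log2 fold change 1.11). Esrp1, a splicing factor restricted to epithelia, was at 10.8, 10.7 and 9.19 CPM against 22.5, 18.6 and 26.1 CPM (1.13). Among keratins of simple and glandular epithelium, Krt7 was at 18.6, 22.5 and 24.4 CPM against 47.4, 47.8 and 63.3 CPM (1.27) and Krt19 at 57.5, 63.7 and 71.0 CPM against 110, 114 and 143 CPM (0.93). Pax9, a transcription factor of pharyngeal and oral epithelium, rose from 2.44, 2.63 and 2.42 CPM to 6.54, 5.57 and 7.43 CPM (1.38). It was at 2.47, 6.25 and 3.44 CPM in the empty-vector libraries (12-library scaling). Anxa1, an annexin abundant in squamous epithelium, rose by a log2 fold change of 1.01. Of these genes Grhl2, Krt7 and Krt6a are on chromosome 15, where the genes as a whole lay higher in K412R.

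The keratinocyte difference was also present without that chromosome. Among the 24 tested members that are not on chromosomes 1, 15 or Y, the median log2 fold change was 0.96. Of the 24, 11 were 2-fold higher (beside 1.79% of all genes). In all 3 K412R libraries 14 lay above (beside 11.9% of all genes). With any 1 library left out, the list's median stayed between 0.78 and 1.11 and the number of members 2-fold higher between 10 and 22.

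Promoter sequence is shown for 2 of the genes that rose, since it holds the E-box CACCTG that repressors of the Snail and Zeb families read in epithelial genes. The windows are the 250 bases before the gene's start in RefSeq's GRCm38.p6, read along the gene, at chr17:87635729-87635978 for Epcam (plus strand) and chr3:92485882-92486131 for Sprr1a (minus strand). Capitals mark CACCTG or its reverse complement CAGGTG.
Epcam: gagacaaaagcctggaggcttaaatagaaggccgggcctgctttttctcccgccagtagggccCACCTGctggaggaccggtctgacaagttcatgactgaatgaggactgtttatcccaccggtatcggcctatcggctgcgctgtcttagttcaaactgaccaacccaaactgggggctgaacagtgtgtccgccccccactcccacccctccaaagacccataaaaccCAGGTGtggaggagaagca
Sprr1a: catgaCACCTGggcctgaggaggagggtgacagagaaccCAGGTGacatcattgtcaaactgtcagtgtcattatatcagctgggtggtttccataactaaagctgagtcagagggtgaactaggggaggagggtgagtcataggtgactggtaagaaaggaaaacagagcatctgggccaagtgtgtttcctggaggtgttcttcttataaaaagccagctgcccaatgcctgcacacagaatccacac
Each window holds 2 matches. The windows of Dsp and Krt5, which are not shown, hold 0 and 1. Over the 13225 tested genes with a promoter in the table, 15.9% held at least 1 match on either strand. The share was 8 of 30 (26.7%) among genes called higher in K412R and 5 of 17 (29.4%) in the keratinocyte list. The Grainyhead-like motif AACCNGTT was in 1.63% of all windows, in 0 of the 30 and in 1 of the 17. These are matches of letters and not sites of binding.

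Motile cilia line the airway, the ventricles of the brain and the oviduct, and their dynein motors are large proteins encoded by the Dnah genes. No member of the motile cilium list passed the adjusted threshold with edgeR. Of 50 tested genes 47 had a positive log2 fold change, and the median was 0.56. By the 2-fold criterion 7 were higher (beside 1.79% of all genes) and 0 lower. Of the 50, 27 (54.0%, beside 11.9% of all genes) lay above in all 3 K412R libraries and 0 below (beside 7.98%). DESeq2 called 16 of the 50 higher (beside 2.86% of all genes it tested) and 0 lower (beside 1.68%). The summed level was 880, 1138 and 1061 CPM against 1257, 1375 and 1562 CPM. With 1 library left out the median stayed between 0.38 and 0.74.

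Dnah5, a heavy chain of the outer dynein arm, was at 8.23, 11.3 and 13.2 CPM against 20.7, 30 and 39.4 CPM (log2 fold change 1.46, standard error 0.25, adjusted p = 0.0641 by edgeR quasi-likelihood). It lies on chromosome 15. Dnah9, another outer arm chain, was at 53.3, 55.5 and 58.6 CPM against 73.6, 70.3 and 79.0 CPM (0.41, adjusted p = 0.0876). Foxj1, the transcription factor that directs the making of motile cilia, was at 61.0, 72.8 and 73.4 CPM against 87.8, 99.4 and 102 CPM (0.48, adjusted p = 0.0937). The libraries of the 2 groups did not overlap for any of these 3.

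Promoters of 2 cilium genes are shown for the half-site GTTGCCAT of the RFX transcription factors, which act with Foxj1 on cilium genes. Windows are again the 250 bases before the start in GRCm38.p6, at chr14:13670626-13670875 for Sntn (plus strand) and chr11:72361883-72362132 for Tekt1 (minus strand), and capitals mark the match.
Sntn: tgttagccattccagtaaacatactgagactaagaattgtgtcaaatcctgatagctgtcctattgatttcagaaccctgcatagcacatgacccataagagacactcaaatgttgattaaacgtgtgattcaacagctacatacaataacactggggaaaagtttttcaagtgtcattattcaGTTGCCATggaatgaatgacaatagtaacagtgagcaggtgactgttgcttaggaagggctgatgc
Tekt1: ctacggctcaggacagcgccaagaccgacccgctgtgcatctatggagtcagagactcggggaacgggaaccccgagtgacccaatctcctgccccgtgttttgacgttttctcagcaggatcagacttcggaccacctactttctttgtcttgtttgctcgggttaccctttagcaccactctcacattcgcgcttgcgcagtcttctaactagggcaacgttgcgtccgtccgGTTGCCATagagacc
The half-site or its reverse complement ATGGCAAC stood in 1.01% of all windows and in 4 of the 42 cilium genes with a promoter in the table (9.52%), and the list held the E-box of the epithelial genes in 11 of 42 (26.2%), Sntn among them.

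Other epithelial lists held fewer tested genes. In the airway and lung list, 4 of 13 tested genes were 2-fold higher (beside 1.79% of all genes) and 0 lower. Of the 13, 0 passed the adjusted threshold, and the median log2 fold change was 0.57. Ltf, which encodes the secreted iron-binding protein lactoferrin, was at 1.65, 1.79 and 2.31 CPM against 3.76, 8.62 and 9.29 CPM (log2 fold change 1.91, adjusted p = 0.0725 by edgeR quasi-likelihood). Cyp2f2, a cytochrome of airway club cells, was at 16.8, 51.4 and 69.1 CPM against 87.9, 118 and 175 CPM (1.47, adjusted p = 0.171). Both lay above in all K412R libraries. Sec14l3, a lipid-binding protein of ciliated airway epithelium, is in no list and rose from 4.36, 8.52 and 9.66 CPM to 22.3, 29.7 and 44.0 CPM (log2 fold change 2.09). The empty-vector libraries stood at 6.52, 43.6 and 8.41 CPM (12-library scaling), so libraries of 1 construct varied about as much.

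In the intestinal and gastric list 4 of 25 were 2-fold higher (beside 1.79% of all genes) and 0 lower. The median was 0.24, and it moved between -0.03 and 0.32 when a library was left out. The liver and yolk sac endoderm list had a median of 0.37 over 30 genes, with 0 called. Of these genes, 11 (36.7%, beside 11.9% of all genes) lay above in all K412R libraries. Dab2, an endocytic adaptor of visceral endoderm on chromosome 15, was at 56.8, 45.4 and 41.2 CPM against 80.2, 66.9 and 85.9 CPM (log2 fold change 0.70, adjusted p = 0.0843 by edgeR quasi-likelihood). In the choroid plexus list (19 tested, median 0.21) Lbp, the lipopolysaccharide-binding protein, rose from 18.8, 18.3 and 15.4 CPM to 28.5, 34.2 and 39.2 CPM.

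The list of primitive streak, organizer and mesendoderm genes, which mark cells at gastrulation, had a median of 0.46 over 23 tested genes, 20 of them positive. Of the 23, 10 (43.5%, beside 11.9% of all genes) lay above in all K412R libraries, 1 below, and 0 were called. T, the Brachyury gene, was at 34.5, 21.5 and 20.1 CPM against 45.5, 37.1 and 52.0 CPM (log2 fold change 0.82, adjusted p = 0.128 by edgeR quasi-likelihood). Lhx1, a transcription factor of the organizer that neurons also use, went the other way, at 28.1, 20.0 and 31.2 CPM against 15.6, 15.5 and 12.7 CPM (-0.86, adjusted p = 0.0843). Neither gene overlapped between groups. Pluripotency genes had a median of -0.02 over 32 genes, with 0 past either criterion.

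**Figure D2:**
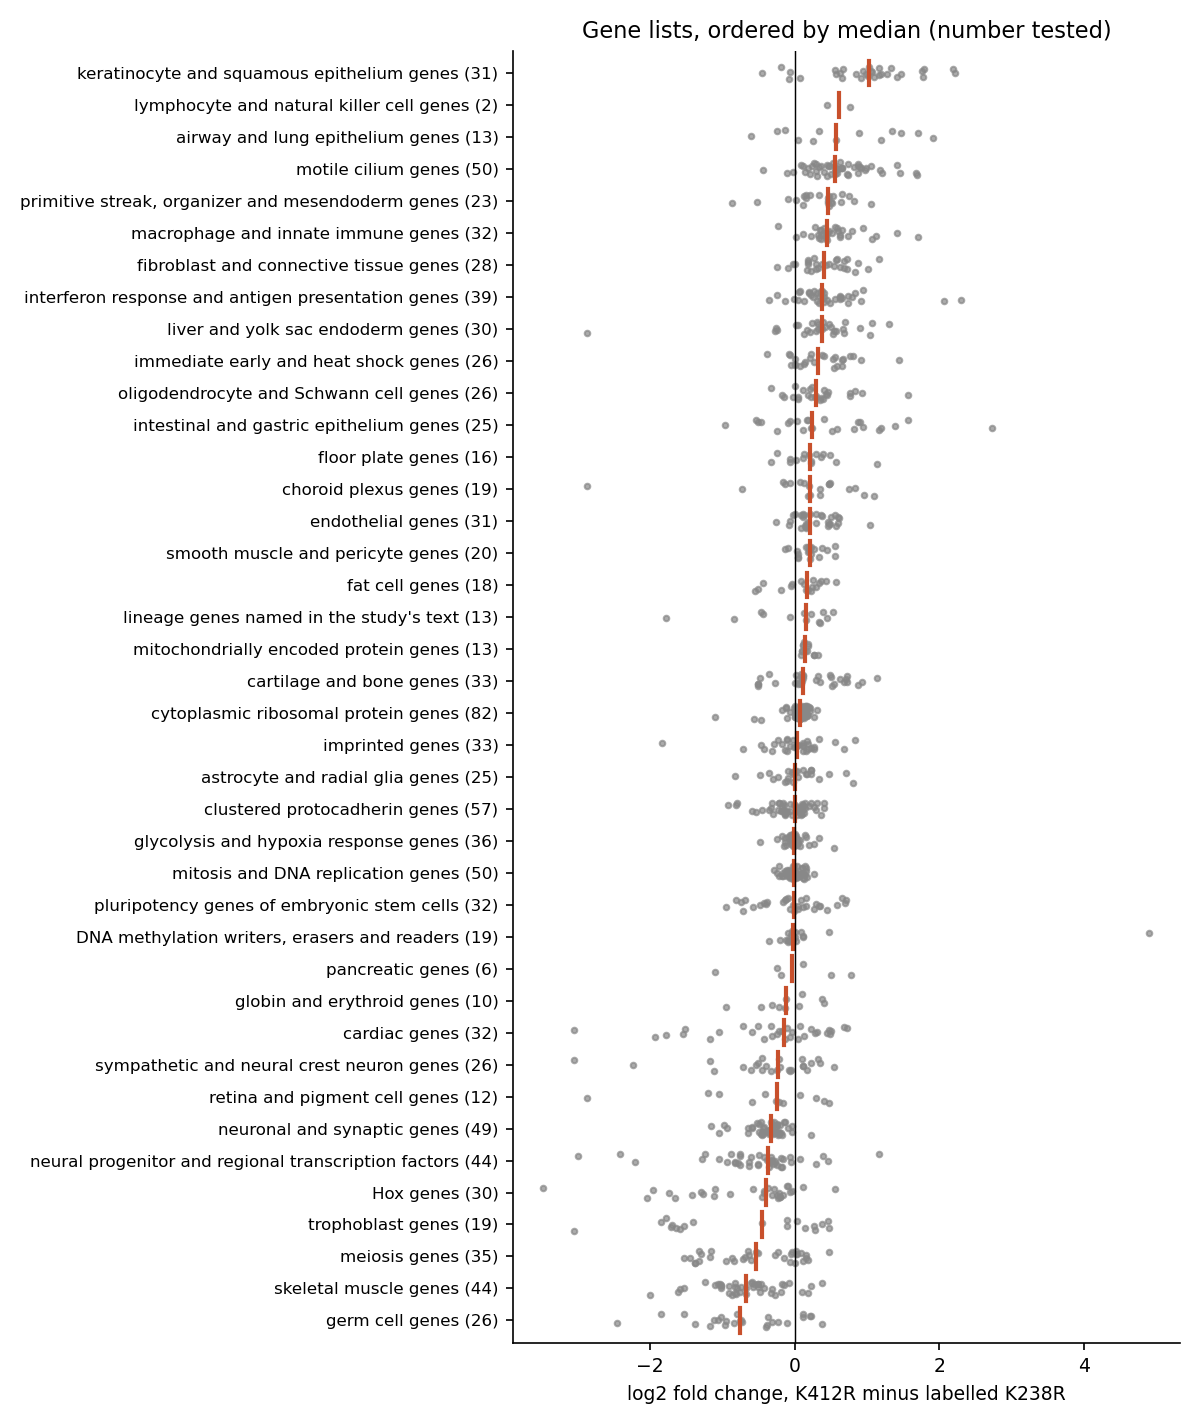
Log2 fold change, K412R minus the libraries labelled K238R, of each tested gene of 40 gene lists (1 point a gene), with the list's median as a vertical bar. Lists are ordered by median, from 1.03 for keratinocyte genes to -0.75 for germ cell genes, and numbers in parentheses are the genes tested. The skeletal muscle list has a median of -0.67 with 0 members called.

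Connective tissue genes were higher in K412R. Of the 28 tested fibroblast genes, 25 had a positive log2 fold change, and the median was 0.41. In this list 2 rose (beside 0.261% of all genes) and 0 fell. Of the 28, 10 (35.7%, beside 11.9% of all genes) lay above in all K412R libraries and 0 below. Postn, which encodes the matrix protein periostin, was at 119, 113 and 108 CPM against 189, 169 and 187 CPM (log2 fold change 0.68, standard error 0.09, adjusted p = 0.0472 by edgeR quasi-likelihood). Fbln2, which encodes fibulin-2 of elastic fibres and basement membranes, was at 82.0, 78.7 and 77.5 CPM against 123, 129 and 128 CPM (0.68, standard error 0.08, adjusted p = 0.0472). Replicates of each group stood close together for both genes.

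The main fibrillar collagen gene varied more. Col1a1 was at 341, 805 and 385 CPM against 845, 713 and 956 CPM, with overlap (log2 fold change 0.71, adjusted p = 0.302 by edgeR quasi-likelihood), since replicate 2 labelled K238R was as high as K412R. Outside the lists, Cxcl12, a chemokine of stromal cells, rose from 25.4, 44.3 and 31.6 CPM to 91.5, 77.3 and 117 CPM (log2 fold change 1.5), and Tgfbi, a matrix protein induced by TGF-beta, from 24.8, 36.5 and 27.4 CPM to 67.7, 62.1 and 93.8 CPM (1.34). Ltbp4 and Olfml3, matrix genes as well, rose by 0.68 and 0.69. Cartilage and bone genes had a median of 0.11 over 33 genes, with 1 of them 2-fold higher (beside 1.79% of all genes). The smooth muscle and pericyte list had a median of 0.20 over 20 genes with 0 past either criterion.

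Macrophage genes, whose RNA in a teratoma can come from graft cells or from the host, had a median of 0.45. Of 32 tested, 31 were positive, 4 were 2-fold higher (beside 1.79% of all genes) and 0 were called. Of the 32, 19 (59.4%, beside 11.9% of all genes) lay above in all K412R libraries and 0 below. Their summed level was 504, 392 and 379 CPM against 599, 586 and 556 CPM. Ptprc, the leukocyte antigen CD45, was at 5.90, 5.43 and 5.09 CPM against 8.73, 9.33 and 9.40 CPM (log2 fold change 0.74, adjusted p = 0.0843 by edgeR quasi-likelihood). Mrc1, the macrophage mannose receptor, was at 31.7, 24.8 and 19.9 CPM against 49.3, 37.0 and 46.0 CPM (0.79, adjusted p = 0.099). F13a1, a transglutaminase subunit that tissue macrophages make, is in no list and rose from 20.2, 17.6 and 16 CPM to 45.8, 33.2 and 38.7 CPM (1.13).

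Cd300ld5, a member of a family of leukocyte surface receptors, had 0 counts in all 3 libraries labelled K238R and 47, 37 and 82 counts in K412R, which makes it at least 58-fold higher against a floor of 3 counts over the group. It stood at 1.91, 0.760 and 0.621 CPM in the empty-vector libraries (12-library scaling), and in the wild-type libraries it was at 1.61, 2.61 and 0.358 CPM. Genes of this family are close copies of each other, and the estimated counts can divide reads between them. Endothelial genes had a median of 0.21 over 31 tested. Of these, 9 (29.0%, beside 11.9% of all genes) lay above in all K412R libraries and 0 below. The lymphocyte list had only 2 tested members, Cd4 and Il2rb, and globin and erythroid genes had a median of -0.13 over 10, with replicate 3 of both groups low (323 and 257 summed CPM against 667 to 850 in the other 4 libraries).

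Interferon response and antigen presentation genes had a median of 0.38 over 39 tested. They had 10 members (25.6%, beside 11.9% of all genes) above, 1 below and 0 called. K412R replicate 2 stood apart in them. Iigp1, an interferon-induced GTPase, was at 2.43, 22.4 and 2.57 CPM in K412R and at 1.75, 2.24 and 1.52 CPM in the libraries labelled K238R. Gbp4, another such GTPase, was at 2.60, 20.7 and 2.62 CPM in K412R and at 2.66, 1.91 and 1.63 CPM in the others. With 1 library left out, the list's median ranged from 0.15 to 0.48. Immediate early and heat shock genes, which respond within the time of dissection, had a median of 0.32 over 26. They had 7 members (26.9%, beside 11.9% of all genes) above, 0 below and 0 called. The 13 mitochondrially encoded protein genes had a median of 0.14, ribosomal protein genes 0.08 over 82 and proliferation genes -0.01 over 50, with 0 members called in any of these lists.

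Most genes of the neuronal and neural progenitor lists were lower in K412R, though the libraries of the groups overlapped in the median of each list. Of 49 tested neuronal and synaptic genes 48 had a negative log2 fold change, with a median of -0.33. Of the 49, 15 (30.6%, beside 7.98% of all genes) lay below in all K412R libraries and 0 above. Of 44 neural progenitor and regional transcription factors 39 were negative, with a median of -0.37, 10 (22.7%) below and 0 above. No member of either list passed the adjusted threshold with edgeR, while DESeq2 called 13 and 9 lower (beside 1.68% of all genes it tested) and 0 higher. The summed level of the neuronal list was 10556, 14742 and 12572 CPM against 8855, 10405 and 10056 CPM, and of the progenitor list 1263, 1013 and 1245 CPM against 1070, 911 and 955 CPM. The medians stayed below 0 with each library left out (-0.53 to -0.16 for neurons and -0.57 to -0.30 for progenitors).

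Elavl3, an RNA-binding protein of neurons, was at 255, 294 and 295 CPM against 177, 193 and 193 CPM (log2 fold change -0.58, standard error 0.09, adjusted p = 0.0504 by edgeR quasi-likelihood), just outside the threshold. Elavl4, of the same family, was at 128, 122 and 148 CPM against 94.0, 86.7 and 98.0 CPM (-0.52, adjusted p = 0.0803). Gad1, which makes the inhibitory transmitter GABA, was at 36.7, 58.8 and 37.0 CPM against 15.8, 26.2 and 17.8 CPM (-1.15, adjusted p = 0.0843). None of the 3 overlapped between groups.

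Among regional factors, En2, a transcription factor of the midbrain and hindbrain border, was at 3.35, 9.13 and 8.93 CPM against 1.62, 1.52 and 1.48 CPM (log2 fold change -2.21, adjusted p = 0.0667 by edgeR quasi-likelihood). Pax5, another gene of that region, was at 5.31, 48.5 and 22.3 CPM against 4.17, 4.11 and 1.31 CPM (-2.99, adjusted p = 0.115), and it varied widely inside the libraries labelled K238R. Lhx5, a factor of forebrain and spinal interneurons, was at 18.4, 12.8 and 17.8 CPM against 9.31, 7.68 and 6.83 CPM (-1.04, adjusted p = 0.0694). All 3 lay below in K412R without overlap.

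Neural genes that did fall were on chromosome 1, where the genes as a whole lay lower in K412R. Cntn2, an axonal adhesion protein, fell from 99.4, 81.5 and 125 CPM to 54.1, 40.5 and 39.5 CPM (log2 fold change -1.19, standard error 0.18). Rgs8, a regulator of G protein signalling in neurons, fell from 31.1, 41.0 and 33.5 CPM to 16.5, 17.5 and 17.5 CPM (-1.03, standard error 0.13). Vash2, a tubulin carboxypeptidase, and Idh1, the cytosolic isocitrate dehydrogenase, fell by less (-0.58 and -0.54). Lhx4 and Lhx9, LIM homeobox factors on the same chromosome, had log2 fold changes of -1.77 and -2.50 and adjusted p-values of 0.067 and 0.0694 by edgeR quasi-likelihood.

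Glial lists gave other values. The oligodendrocyte and Schwann cell list had a median of 0.29 over 26 genes, 22 of them positive. Its summed level was 995, 1204 and 987 CPM in the libraries labelled K238R, against 1058, 1632 and 1020 CPM in K412R. Without K412R replicate 2 the list's median was 0.01. Erbb3, the neuregulin receptor of Schwann cells that epithelia also make, rose from 11.0, 9.47 and 10.1 CPM to 18.7, 16.9 and 19.07 CPM (log2 fold change 0.84). Astrocyte and radial glia genes had a median of 0.01 over 25, and floor plate genes 0.21 over 16, with 0 called in both. Sympathetic and neural crest neuron genes had a median of -0.23 over 26 (4 were 2-fold lower, 0 higher). Retina and pigment cell genes had a median of -0.24 over 12 (3 lower, 0 higher). Of all genes 0.816% were 2-fold lower. In all K412R libraries 6 sympathetic genes (23.1%) and 1 retina gene (8.33%) lay below, beside 7.98% of all genes, while 1 sympathetic gene lay above. Clustered protocadherin genes had a median of 0.00 over 57. Hox genes, which give position along the trunk, had a median of -0.39 over 30, with 28 negative. Of the 30, 7 were 2-fold lower (beside 0.816% of all genes) and 0 higher. Only 2 of them (6.67%, beside 7.98% of all genes) lay below in all K412R libraries, and 1 lay above. Hoxc10, a posterior member on chromosome 15, was at 2.28, 11.0 and 5.30 CPM against 1.33, 1.29 and 1.86 CPM (log2 fold change -2.04, adjusted p = 0.125 by edgeR quasi-likelihood), against the direction of its chromosome.

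Germ cell and meiosis genes were lower in K412R without a call. Such genes are held silent in somatic cells in part by DNA methylation at their promoters. Of 26 tested germ cell genes 21 were negative, with a median of -0.75. Of the 26, 7 were 2-fold lower (beside 0.816% of all genes) and 0 higher. In all K412R libraries 12 (46.2%, beside 7.98% of all genes) lay below, with 0 above. Of 35 tested meiosis genes 25 were negative, with a median of -0.53. Of the 35, 8 were 2-fold lower (beside 0.816% of all genes) and 0 higher, and 15 (42.9%) lay below with 1 above. DESeq2 called 6 lower (beside 1.68% of all genes it tested) and 0 higher in each list. With 1 library left out the medians stayed between -0.88 and -0.59 for germ cell genes and between -0.59 and -0.35 for meiosis genes.

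Mael, a piRNA pathway gene of the germ line that is in both lists and lies on chromosome 1, was at 13.8, 22.9 and 22.7 CPM against 5.96, 10.8 and 9.45 CPM (log2 fold change -1.17, standard error 0.26, adjusted p = 0.0967 by edgeR quasi-likelihood). Sycp1, a protein of the synaptonemal complex that joins chromosomes in meiosis, was at 3.93, 5.77 and 5.57 CPM against 1.45, 2.40 and 2.24 CPM (-1.32, standard error 0.27, adjusted p = 0.0843). Dazl, an RNA-binding protein of germ cells, was at 8.61, 12.0 and 13.6 CPM against 3.35, 8.15 and 4.26 CPM (-1.11, adjusted p = 0.155). The groups did not overlap for these genes. Asz1, another piRNA gene, was at or under 1 CPM in all 6 libraries (0.956, 0.784 and 0.840 against 0.116, 0.235 and 0.109 CPM).

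Trophoblast genes had a median of -0.45 over 19 tested, with 7 of them 2-fold lower (beside 0.816% of all genes) and 0 higher. Another 19 members were below the filter. The summed level of the list lay the other way, at 1160, 922 and 1049 CPM in the libraries labelled K238R against 1169, 1167 and 1258 CPM in K412R. Hand1, a transcription factor of trophoblast and heart, was at 10.2, 1.46 and 2.21 CPM against 0.578, 0.821 and 0.273 CPM. The list's median stayed between -0.76 and -0.21 with each library left out. It was -0.21 without replicate 1 labelled K238R, where 2 members were 2-fold lower.

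**Figure D3:**
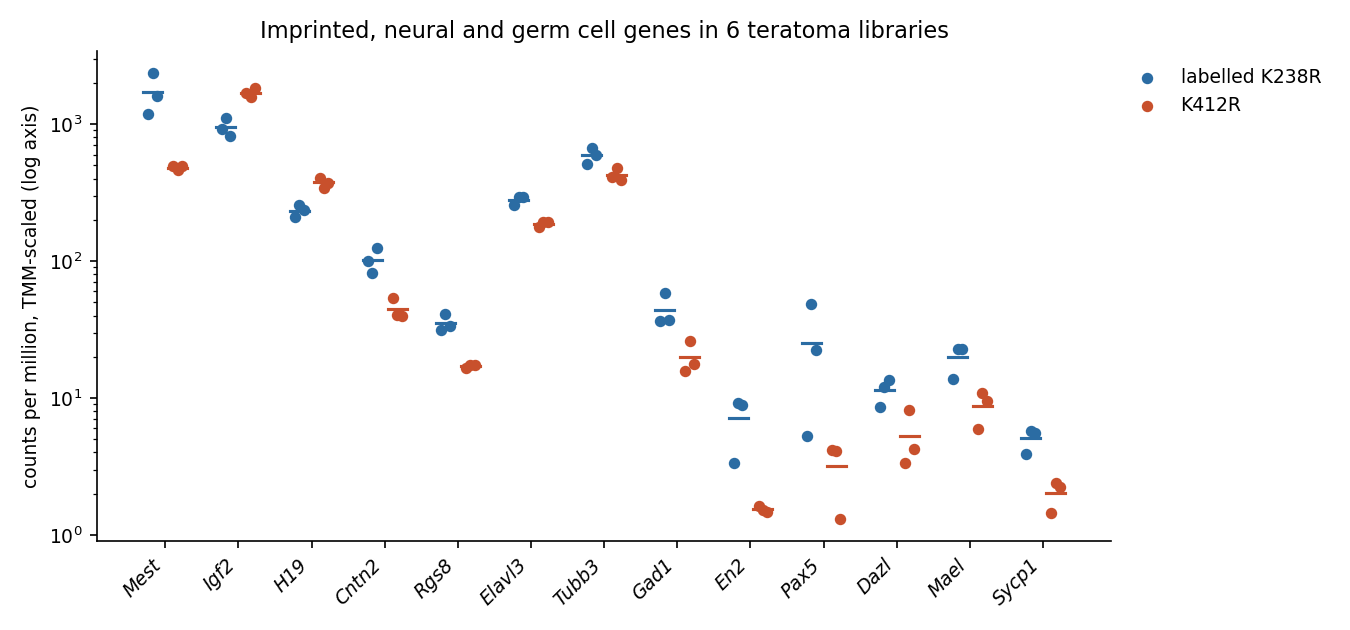
Level of 3 imprinted, 7 neural and 3 germ cell or meiosis genes in each of the 6 libraries, in TMM-scaled CPM on a log axis. Points are libraries and bars are group means (3 libraries each). Igf2 and H19 lay higher in all K412R libraries, and the other 11 genes lay lower in all of them. The genes were picked with their values known and do not stand for their lists. Of the tested genes, 15 of 49 neuronal, 10 of 44 neural progenitor, 12 of 26 germ cell and 15 of 35 meiosis genes lay lower in all K412R libraries. Over all genes tested the share was 7.98%.

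Imprinted genes are expressed from 1 parental allele according to methylation set in the germ line. Over 33 tested, their median log2 fold change was 0.03, and 3 of them were called (beside 0.295% of all genes). All K412R libraries lay above the others for 8 (24.2%, beside 11.9% of all genes) and below for 5 (15.2%, beside 7.98%). Mest, which is expressed from the paternal allele and encodes an enzyme of the alpha/beta hydrolase fold, was at 1195, 2363 and 1597 CPM in the libraries labelled K238R, against 494, 459 and 493 CPM in K412R. The K412R values stood close together and below the lowest of the others, and the log2 fold change was -1.83 (standard error 0.22, adjusted p = 0.0472 by edgeR quasi-likelihood). Its level was 1068 to 1984 CPM in the empty-vector libraries, above K412R in each. Copg2os2, which shares the imprinted locus of Mest, had 0 counts in all 3 K412R libraries and 1.91, 13.5 and 8.51 CPM in the others (adjusted p = 0.0627). It was also listed at 0 in 1 empty-vector library. Copg2, a neighbour in that locus, was at 66.9, 59.3 and 67.7 CPM against 77.3, 70.3 and 73.2 CPM (log2 fold change 0.19, adjusted p = 0.372).

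Igf2 and H19 lie side by side on chromosome 7, where Igf2, a growth factor, is read from the paternal allele and H19, a non-coding RNA, from the maternal one. Both rose. Igf2 was at 925, 1118 and 816 CPM against 1678, 1592 and 1835 CPM (log2 fold change 0.84, standard error 0.13), and H19 at 209.5, 255 and 237.5 CPM against 407, 344 and 374 CPM (0.68, standard error 0.10), each with an adjusted p of 0.0489 by edgeR quasi-likelihood and no overlap. In the empty-vector libraries (12-library scaling) Igf2 was at 1349, 2082 and 959 CPM, a range that reached both groups. H19 was at 275, 173 and 320 CPM there. Peg10 was at 907, 741 and 864 CPM against 956, 1007 and 1064 CPM (0.27, adjusted p = 0.265). DNA methylation and the parental origin of reads were not measured here.

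The other Dnmt genes and the Tet genes overlapped between the groups. The list of methylation genes had a median of -0.03 over 19 tested genes, with Dnmt3l the 1 call. Dnmt1, the maintenance methyltransferase, was at 231, 171 and 184 CPM against 180, 166 and 164 CPM (log2 fold change -0.20, adjusted p = 0.486 by edgeR quasi-likelihood), and Dnmt3a, the partner of Dnmt3L, was at 193, 213 and 215 CPM against 202, 187 and 218 CPM (-0.03, standard error 0.09, adjusted p = 0.921). Dnmt3b was at 25.2, 14.6 and 14.0 CPM against 23.7, 26.6 and 25.1 CPM (0.48, adjusted p = 0.339), where replicate 1 labelled K238R was as high as K412R. The oxidases Tet1, Tet2 and Tet3 had log2 fold changes of 0.01, 0.09 and -0.06. All 6 of these genes overlapped between groups. Zfp57, which protects imprints from demethylation in the early embryo, was at 119, 114 and 119 CPM against 96.9, 85.8 and 92.0 CPM (-0.36, standard error 0.08, adjusted p = 0.101).

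The genes of 3 chromosomes were displaced together. For each library, the deviation of every gene's log2 CPM from its mean over the 6 libraries was taken, and the median over the genes of a chromosome is given. RefSeq placed 17153 of the 17644 tested genes. On chromosome 15 (701 genes) the medians were -0.06, -0.10 and -0.18 for label K238R and 0.08, 0.14 and 0.12 for K412R, a difference of 0.22, or 1.17-fold. On chromosome 1 (1027 genes) they were 0.02, 0.08 and 0.11 against -0.05, -0.08 and -0.07, a difference of -0.13. Neither overlapped, and the exact 2-sided permutation test gave its smallest possible p for 3 libraries against 3, 0.1, for both. The same p and lack of overlap were found for chromosomes 4, 6, 9, 11, 17 and 19 at differences of only 0.020 to 0.033, so it is the size of the difference that sets chromosomes 1 and 15 apart here, not the p.

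Of the chromosome 15 genes 81.9% had a positive log2 fold change, 33.4% lay above in all K412R libraries and 1.43% below. Of the chromosome 1 genes 31.3% were positive, 8.47% lay above and 24.4% below. On the other 18 chromosomes apart from Y and the mitochondrial genome the difference was between -0.002 and 0.042, with 47.8% to 54.6% positive, 8.82% to 13% above and 5.33% to 10.4% below. The 2 chromosomes held 13 of the 52 called genes. Chromosome 15 gave 9, all of which rose (4.09% of the placed genes are on it), and chromosome 1 gave 4, all of which fell (5.99%). They included Klf10, Fzd6, Tns2, Cthrc1, Fbxo32, Grhl2, Krt7 and Krt6a on chromosome 15 and Cntn2, Rgs8, Vash2 and Idh1 on chromosome 1.

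**Figure D4:**
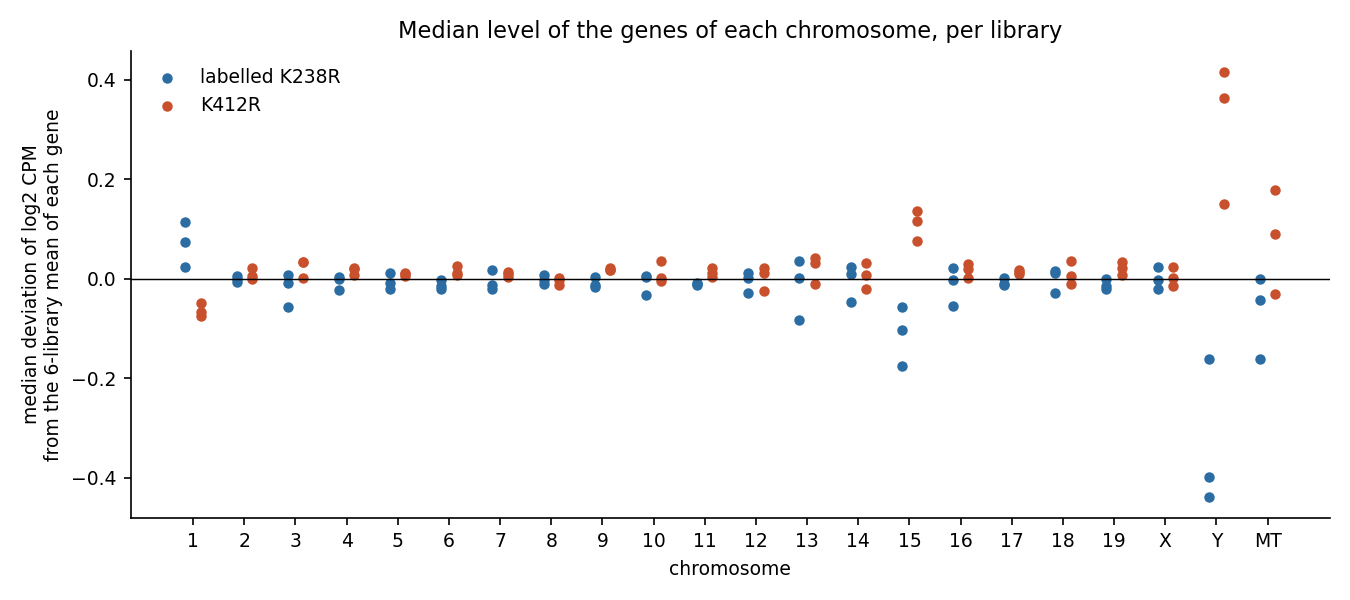
Median deviation of log2 CPM from the 6-library mean of each gene, over the tested genes of each chromosome, 1 point for each library. On chromosomes 15 and Y all 3 K412R libraries lie above the libraries labelled K238R, with a gap wider than on any other nuclear chromosome, and on chromosome 1 they lie below.

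The displacement ran the length of chromosome 15. In 10 blocks of 70 genes along it the median log2 fold change was between 0.14 and 0.28, and 68.6% to 91.4% of a block's genes were positive. On chromosome 1 it was broken. In 10 blocks of 102 or 103 genes the median was -0.22 to -0.18 in the first 3, -0.03 and 0.00 in the fourth and the fifth, and -0.12 to -0.18 in the last 5. Scaled with all 12 libraries, the chromosome 15 medians were 0.133 to 0.195 in K412R, -0.10 to 0.05 in the empty-vector libraries, -0.11 to -0.09 in the wild-type libraries and -0.10 to 0.01 in those labelled K238R. K412R was thus the highest of the 4 groups on chromosome 15. On chromosome 1 the K412R medians, -0.10, -0.12 and -0.12, were the lowest, with the empty-vector libraries at -0.05, 0.10 and -0.09. DNA copy number was not measured here, and its part in these differences was not tested.

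**Figure D5:**
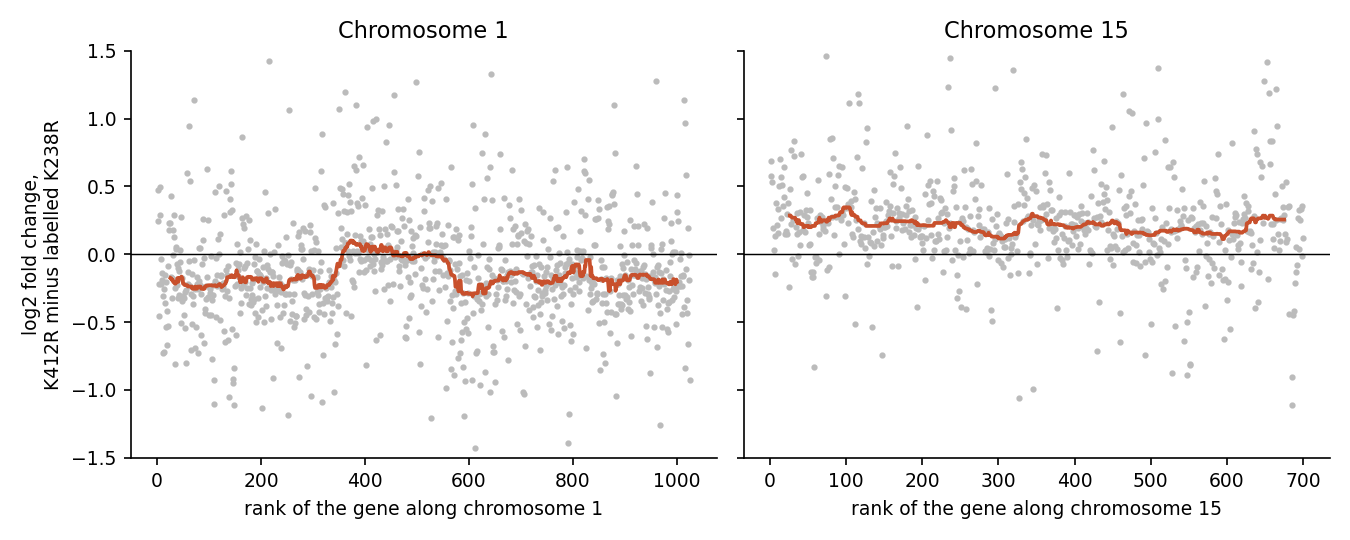
Log2 fold change, K412R minus the libraries labelled K238R, of the tested genes of chromosomes 1 and 15 by their rank along the chromosome (grey points, values beyond 1.5 in either direction not drawn), with the running median of 51 genes in red. The line stays above 0 along chromosome 15, and on chromosome 1 it lies below 0 except over a stretch near the middle.

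Genes of the Y chromosome were higher in K412R, over 10 genes. Ddx3y, an RNA helicase, rose from 35.4, 30 and 24.5 CPM to 55.2, 51.5 and 57.9 CPM (log2 fold change 0.87, standard error 0.14). Uty, a histone demethylase homologue, was at 23.7, 13 and 16.5 CPM against 38.2, 30.9 and 37.9 CPM (1.01, adjusted p = 0.0843 by edgeR quasi-likelihood), and Eif2s3y, a translation factor subunit, at 52.9, 40.5 and 38.5 CPM against 69.9, 67.0 and 74.2 CPM (0.68, adjusted p = 0.0756). None of the 3 overlapped. The median over the 10 genes differed by 0.64, and in the 12-library scaling the empty-vector libraries stood at 0.66, -0.28 and 0.67, so that values of this chromosome varied as much inside that group. Both the graft line and the host mice were male.

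Skeletal muscle set 1 library apart and no group. The summed level of the muscle list was 2272, 2499 and 106 CPM in the libraries labelled K238R, against 1155, 935 and 993 CPM in K412R. Acta1, the actin of skeletal muscle, was at 267, 232 and 3.31 CPM against 87.2, 107 and 91.9 CPM. Replicate 3 labelled K238R thus held almost no muscle RNA while the other libraries of that group held the most. The list's median log2 fold change was -0.67 over 44 genes, with 40 negative, and 0 members passed any criterion or were free of overlap. Without that library the median was the lowest of the 6 fits that leave out a library, -1.25, with 28 members 2-fold lower and 4 called lower. Without replicate 2 labelled K238R it was -0.07, with 0 called. The part of this library in other results was not tested beyond leaving it out. Cardiac genes had a median of -0.15 over 32, with 3 of them 2-fold lower (beside 0.816% of all genes) and 0 higher. Of the 32, 1 (3.12%, beside 7.98% of all genes) lay below in all K412R libraries and 2 lay above.

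A list of 13 of the lineage genes that the study's text names had a median of 0.15 and 0 calls. Dnah11, a ciliary dynein, was at 28.5, 32.4 and 30.4 CPM against 40.5, 39.8 and 44.0 CPM (log2 fold change 0.45, adjusted p = 0.0936 by edgeR quasi-likelihood). Tubb3, the beta-tubulin of neurons, was at 511, 669 and 596 CPM against 414, 478 and 389 CPM (-0.47, adjusted p = 0.131). Folr1, the folate receptor, was at 10.7, 12.4 and 11.7 CPM against 16.6, 12.6 and 15.3 CPM (0.35, adjusted p = 0.302). These 3 did not overlap, and the other 10, Fgf8, Rbp4, Tnni3, Stra8, Rbfox3, Tnnt2, Sox2, Apela, Pkd1l1 and Bmp4, did. Their log2 fold changes lay between -1.78 for Tnnt2, a troponin of heart muscle, and 0.53 for Fgf8. The text also names further genes outside this list, Dazl among them. Of these, 5 more are given here, with 0 calls by edgeR quasi-likelihood. Cer1, a secreted antagonist of Nodal and BMP signals, was at 4.62, 3.25 and 3.57 CPM against 6.77, 9.91 and 7.27 CPM (log2 fold change 1.06, adjusted p = 0.0891), without overlap. Foxa1, Ntn1, Slit2 and Sohlh2 had log2 fold changes of 0.57, 0.29, 0.22 and -0.73 (adjusted p = 0.183, 0.405, 0.744 and 0.181). Of the remaining lists, fat cell genes had a median of 0.17 over 18, glycolysis and hypoxia genes -0.01 over 36 and pancreatic genes -0.04 over 6, with 0 called.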

How the data were processed

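The submitters' processing notes name fastp, STAR, Salmon and GATK and the build GRCm39, and the authors deposited estimated counts per gene, whole numbers without normalization, for 38986 genes, 9845 of them without a count in the 6 libraries. Here edgeR 4.0.16 (R 4.3.3) was fitted to the 6 libraries with TMM scaling, its filter on low counts and the quasi-likelihood test, contrast K412R minus K238R, Benjamini-Hochberg adjustment over 17644 genes. The study's methods name DESeq2, which served as an alternative (version 1.42.0). The fit was tested on simulated data. Other alternatives were relative log expression scaling, no filter, all 12 libraries, the replicate number as a block, each library left out, Gm26917 left out and, for chromosomes, genes of at least 10 CPM. Leaving out chromosomes 1, 15 and Y was added after seeing the data.

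The members and the 40 gene lists were chosen with earlier results of these data known. Named genes were taken from the 12 largest changes in each direction with at least 1 CPM and no overlap (filled from the 2-fold criterion). They were also taken from the Dnmt and Tet genes, the study's lineage genes and, per list, called members or the 2 of lowest p. Not every gene of these sets is given. Any gene outside these sets was named after its values were seen. Chromosomes and promoters came from RefSeq tables of GRCm38.p6 by symbol, so no coordinate of the files' own build is given.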

Additional observations from a re-analysis of the deposited data

How the results depend on the processing

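The log2 fold change of Dnmt3l kept its direction and its call under all 13 alternatives (4.52 to 5.39). The number of genes past the adjusted threshold, 52, did not hold: DESeq2 gave 733, no filter on low counts 525, relative log expression scaling 1, all 12 libraries 4, and the fit without chromosomes 1, 15 and Y 6. Leaving out 1 library gave 1 to 133, with 6 without replicate 3 labelled K238R (1 of them higher) and 53 without its replicate 1 (24 higher), so the excess of higher over lower calls rests on single libraries too. It gave 133 without replicate 2 labelled K238R, 1 without K412R replicate 1 or 3, and 7 without K412R replicate 2. The cause was not tested. With the replicate number as a block, 728 genes passed (478 higher, 250 lower), all 52 among them. Same-numbered libraries correlated in their deviations from the group means by 0.201, 0.204 and 0.077, and each of the 6 correlated best with its own number. Deviations from a group mean are tied to each other within the group, so these agreements are not independent. The numbers are not said to mark a shared batch, so the block is a hint from the data only. The 460 genes by the 2-fold criterion became 873 with no filter, where more genes were tested, and 346 to 614 with 1 library left out. The chromosome 15 difference stayed between 0.163 and 0.240. That of chromosome 1 was -0.192 without replicate 1 labelled K238R, and -0.135 at its smallest with a library left out. That of chromosome Y was 0.232 with no filter, 0.453 with all 12 libraries, and 0.477 (without K412R replicate 2) to 0.722 with a library left out. Among the named genes 12 values changed sign, none of them of a called gene. Tet1 was at -0.004 with DESeq2, -0.005 with relative log expression scaling and -0.003 with all 12 libraries. With 1 library left out, log2 fold changes ran from -0.043 to 0.037 for Tet1, -0.116 to 0.023 for Dnmt3a, -0.019 to 0.167 for Tet2, -0.180 to 0.064 for Tet3 and -0.050 to 0.419 for Tnni3. For the muscle genes they ran from -3.210 to 0.160 (Myh3) and -2.656 to 0.248 (Myog), each above 0 only without replicate 2 labelled K238R. All libraries had near-equal depth, and genes under about 1 CPM, such as Asz1, rest on few counts.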
